A study of Mus musculus with 4 samples.

Results

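The cytosolic ribosomal protein genes were examined for binding of YAP, a transcriptional co-activator that reaches DNA through TEAD proteins, in mouse epidermis. Members were the mouse genes annotated as protein-coding whose symbol is Rpl or Rps followed by a digit, or Rplp0, Rplp1, Rplp2 or Rpsa, without the Rps6k kinases and symbols containing -ps. There were 89 such genes of 21631 protein-coding genes on the autosomes and chromosome X. YAP peaks were assigned to a member when the summit, its highest point, lay within 2 kb of either end of the gene span, which gave 91 of 36576 wild-type (WT) peaks and 26 of 14879 knockout (KO) peaks. Of the 89 genes, the 77 with a canonical symbol are called the core here (46 of the large and 31 of the small subunit). The other 12 were set apart by symbol, and whether their products enter ribosomes was not examined. They are paralogues (Rpl3l, Rpl7l1, Rpl10l, Rpl22l1, Rpl32l, Rpl36al, Rpl39l and Rps27l), retrogene copies (Rpl37rt, Rps27rt and Rps23rg1) and Rps19bp1, which encodes a regulator of the deacetylase SIRT1.

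Chromatin for both groups came from cell suspensions of the epidermis of adult mice, 18 to 25 weeks old, killed at Zeitgeber time 4, that is 4 hours after lights on. The WT group is labelled Bmal1 WT and the KO group Bmal1 KO, or Bmal1cKO in the treatment protocol. BMAL1 pairs with CLOCK to switch on genes of the daily rhythm. For the deletion, its driver and the cells it reached were not given in the sources used here, nor were the sex and number of mice. An anti-YAP antibody was used for ChIP-seq in both groups, and each genotype has 1 pooled peak list, so no value has a replicate error and no test between genotypes was possible. Peak lists hold no transcript levels, so the labelled tissue and genotype could not be checked against expressed markers. The strength of a peak is given as recovered reads, the whole number of ChIP reads at the summit solved from the deposited fold and p. The background of evenly spread reads was 9.63 in both lists, and reads were compared between the lists on that basis. What was pooled and how the lists were brought to this equal background is not stated, and every KO to WT ratio below rests on it. Intervals in brackets are exact 95% Clopper-Pearson intervals over genes or peaks and cover counting error only; genes and peaks of 1 pool are not replicates of a genotype.

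Ribosomal proteins, together with ribosomal RNA, build the small and the large subunit of the ribosome, which meet on a messenger RNA to translate it. The genes are scattered through the genome, are short and are transcribed in nearly all cells, and their transcripts begin with a run of pyrimidines, the terminal oligopyrimidine (TOP) tract, through which the mTOR pathway controls their translation. In skin, inherited changes in ribosomal protein genes can alter pigment and hair: mice with altered Rps19 or Rps20 have dark skin, and changes in human RPL21 cause a loss of hair.

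Promoter sequences were available for 69 of the 89 genes, from RefSeq on build GRCm38.p6 (mm10). The 9 below are shown because they cover the pattern described in the results: 3 promoters whose WT peak overlapped a KO peak (Rpl41, Rpl27, Rps21), 4 whose WT peak overlapped none and is called WT-only (Rpl23, Rps2, Rps6, Rps16) and 2 without a peak (Rps23, Rpsa). Each runs 5′ to 3′ on the strand of the gene, from 250 bases before the annotated start to base 15 of the transcript. Capitals mark matches, on either strand, to 6 short motifs (TEAD GGAATG, AP-1 TGANTCA, E-box CACGTG, ETS CCGGAAG, YY1 AAGATGGC and SP1 GGGCGG) and a pyrimidine tract at the start. The regions are chr10:128549154-128549418, minus strand (Rpl41), chr11:101441995-101442259, plus strand (Rpl27), chr2:180257129-180257393, plus strand (Rps21), chr11:97782425-97782689, minus strand (Rpl23), chr17:24719813-24720077, plus strand (Rps2), chr4:86857353-86857617, minus strand (Rps6), chr7:28350439-28350703, plus strand (Rps16), chr13:90922872-90923136, plus strand (Rps23) and chr9:120127516-120127780, plus strand (Rpsa).
Rpl41: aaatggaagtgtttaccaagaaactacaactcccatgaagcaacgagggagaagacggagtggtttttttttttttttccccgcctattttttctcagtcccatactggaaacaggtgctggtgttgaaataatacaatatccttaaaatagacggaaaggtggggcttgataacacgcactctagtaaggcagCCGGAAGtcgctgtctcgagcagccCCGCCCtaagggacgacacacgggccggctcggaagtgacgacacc
Rpl27: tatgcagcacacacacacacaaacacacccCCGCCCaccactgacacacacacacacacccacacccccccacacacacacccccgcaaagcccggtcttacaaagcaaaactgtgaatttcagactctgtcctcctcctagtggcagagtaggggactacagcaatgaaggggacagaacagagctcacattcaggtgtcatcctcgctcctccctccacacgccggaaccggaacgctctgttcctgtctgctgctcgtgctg
Rps21: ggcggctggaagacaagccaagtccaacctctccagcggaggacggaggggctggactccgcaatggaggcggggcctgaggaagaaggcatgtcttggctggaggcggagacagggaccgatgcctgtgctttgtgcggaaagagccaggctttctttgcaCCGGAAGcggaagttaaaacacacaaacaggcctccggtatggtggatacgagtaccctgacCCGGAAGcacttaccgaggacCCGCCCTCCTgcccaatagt
Rpl23: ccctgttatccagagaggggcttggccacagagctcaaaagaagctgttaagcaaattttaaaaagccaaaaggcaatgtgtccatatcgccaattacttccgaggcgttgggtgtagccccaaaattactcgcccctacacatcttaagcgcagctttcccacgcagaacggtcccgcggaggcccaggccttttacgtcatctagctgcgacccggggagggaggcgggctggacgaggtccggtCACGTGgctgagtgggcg
Rps2: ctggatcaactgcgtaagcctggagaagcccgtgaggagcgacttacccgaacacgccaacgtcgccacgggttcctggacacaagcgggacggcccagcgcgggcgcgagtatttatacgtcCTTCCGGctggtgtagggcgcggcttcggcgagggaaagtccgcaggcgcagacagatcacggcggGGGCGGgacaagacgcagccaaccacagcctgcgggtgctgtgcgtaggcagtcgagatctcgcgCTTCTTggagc
Rps6: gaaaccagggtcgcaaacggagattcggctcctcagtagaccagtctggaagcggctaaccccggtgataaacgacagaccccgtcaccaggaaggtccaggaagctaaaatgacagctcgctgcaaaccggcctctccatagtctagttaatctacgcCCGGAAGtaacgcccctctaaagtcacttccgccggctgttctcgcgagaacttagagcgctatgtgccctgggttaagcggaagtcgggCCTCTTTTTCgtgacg
Rps16: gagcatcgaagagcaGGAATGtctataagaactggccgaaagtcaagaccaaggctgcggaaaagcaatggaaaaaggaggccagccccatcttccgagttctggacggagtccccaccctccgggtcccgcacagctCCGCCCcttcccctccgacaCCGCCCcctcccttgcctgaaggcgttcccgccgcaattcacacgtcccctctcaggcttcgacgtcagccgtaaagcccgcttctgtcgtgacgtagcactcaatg
Rps23: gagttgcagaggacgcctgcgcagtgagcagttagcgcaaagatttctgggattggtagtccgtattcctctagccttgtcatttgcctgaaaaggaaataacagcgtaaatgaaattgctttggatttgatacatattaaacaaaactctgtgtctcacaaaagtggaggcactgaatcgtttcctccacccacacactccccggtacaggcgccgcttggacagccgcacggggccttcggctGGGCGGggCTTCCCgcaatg
Rpsa: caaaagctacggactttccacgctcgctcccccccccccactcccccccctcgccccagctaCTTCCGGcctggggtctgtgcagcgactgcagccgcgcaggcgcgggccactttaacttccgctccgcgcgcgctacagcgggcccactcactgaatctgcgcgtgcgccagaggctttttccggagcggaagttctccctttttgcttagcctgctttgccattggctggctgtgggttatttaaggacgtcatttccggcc

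In Rpl41 the ETS match lay at -56 to -50, where the WT summit at -54 also lay, and an SP1 match at -31 to -26, counted from the start as 1. Rps21 held 2 ETS matches, at -88 to -82 and -26 to -20, with the WT summit 75 bp upstream of the start between them, and an SP1 match that runs into its pyrimidine tract. Rpl23 held the E-box, the sequence bound by BMAL1 with its partner CLOCK, at the start itself, from -3 to 3. Rps16 held the TEAD match, at -235 to -230, with the summit at -48. Rpl27 held an SP1 match at -220 to -215, and Rpsa, without a peak, an ETS match at -188 to -182.

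Most ribosomal protein genes carried a YAP peak in WT. A WT summit lay within 2 kb of either end for 75 of 89 genes (84.3%, 75 to 91.1), against 41.6% of all protein-coding genes. Ribosomal protein genes are short, with a median span of 3183 bp, and for all genes with a span under 10 kb the share was 31.9%. The share was 84.8% (71.1 to 93.7) for the 46 core genes of the large subunit, 90.3% (74.2 to 98.0) for the 31 of the small subunit and 66.7% (34.9 to 90.1) for the 12 genes outside the core. The intervals of the subunits overlap. Of the 75 genes, 59 had 1 peak, 15 had 2, and Rpl9 had 3. One peak was counted for a pair of members.

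In KO, a summit lay near 24 of the 89 genes (27.0%, 18.1 to 37.4), against 16.0% of all protein-coding genes and 12.7% of those with a span under 10 kb. All 24 also had a WT peak, and 51 genes had a WT peak without a KO peak. The latter count was not made over all protein-coding genes, of which 8992 had a WT and 3469 a KO peak. The KO list was also shorter, with 14879 peaks against 36576. A KO peak was near 14 of 46 core genes of the large subunit and 7 of 31 of the small subunit. The plot of gene shares by list shows the WT and KO values side by side.

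**Figure D1:**
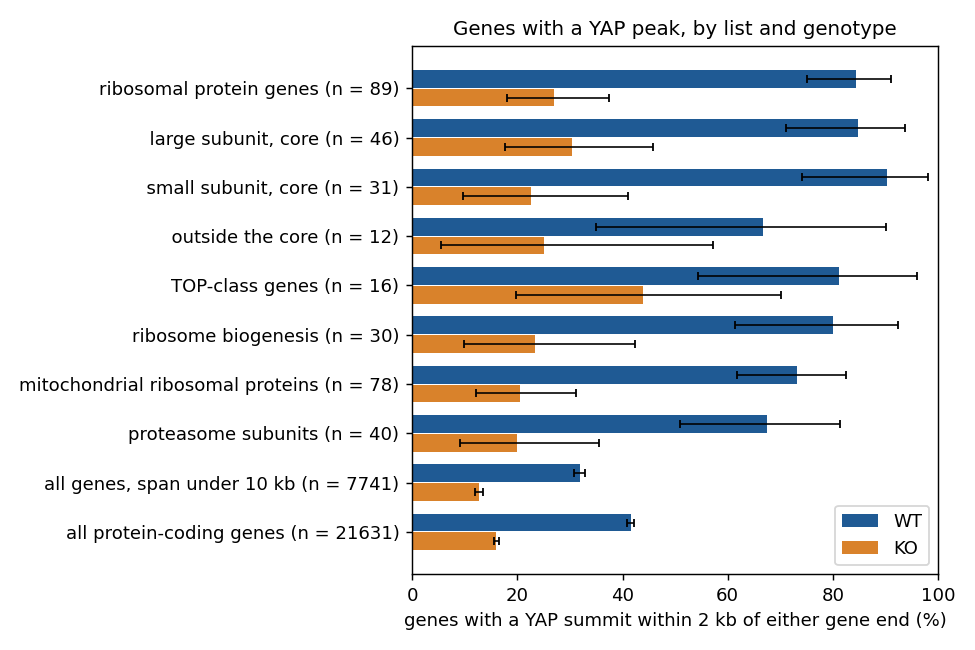
Share of genes with a YAP summit within 2 kb of either gene end (horizontal axis, percent) in the WT (blue) and KO (orange) lists, for ribosomal protein genes, other lists and all genes; lines are exact 95% intervals that cover counting error only. Ribosomal protein genes lie at 84.3% in WT and 27.0% in KO, and all protein-coding genes at 41.6% and 16.0%.

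The share depended on the strength asked of a peak. With peaks of at least 50 WT reads the share was 59.6% (48.6 to 69.8) of ribosomal protein genes and 31.5% of all genes. At 60 reads it was 41.6% (31.2 to 52.5) and 22.9%, and at 70 reads 21.3% (13.4 to 31.3) and 16.0%. At 80 reads the shares were 16.9% (9.75 to 26.3) and 11.6%, at 90 reads 13.5% (7.17 to 22.4) and 8.55%, and at 100 reads 8.99% (3.96 to 16.9) and 6.25%. From 70 reads on, the share of all genes lay inside the interval of the ribosomal protein genes. With all peaks and at 50 and 60 reads it lay below that interval. Among genes with a span under 10 kb the shares were 12.5% at 70 reads, 9.29% at 80 and 6.78% at 90, all below the interval of the ribosomal protein genes, and 5.19% at 100 reads, inside it. When the WT list was cut by score to the length of the KO list, 24 genes (27.0%) had a WT peak, the same number as in KO, against 16.3% of all genes. In KO, 8 genes (8.99%, 3.96 to 16.9) had a peak of at least 50 reads, against 8.22% of all genes.

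Summit reads at the 91 WT peaks ran from 34 to 219 with a median of 58, and the median was also 58 over the 9953 WT peaks within 2 kb of any gene end. The median deposited fold over background was 4.27 at ribosomal protein genes and 4.36 near any gene end. Local background, in the same reads, had a median of 11.5 in both sets. At least 100 reads were found at 8 of the 91 peaks (8.79%) and at 12% of the peaks near any gene end. The peaks belonged to Rpl13, Rps27l, Rps26, Rpl3, Rpl7, Rpl41, Rpl18 and Rpl27.

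**Figure D2:**
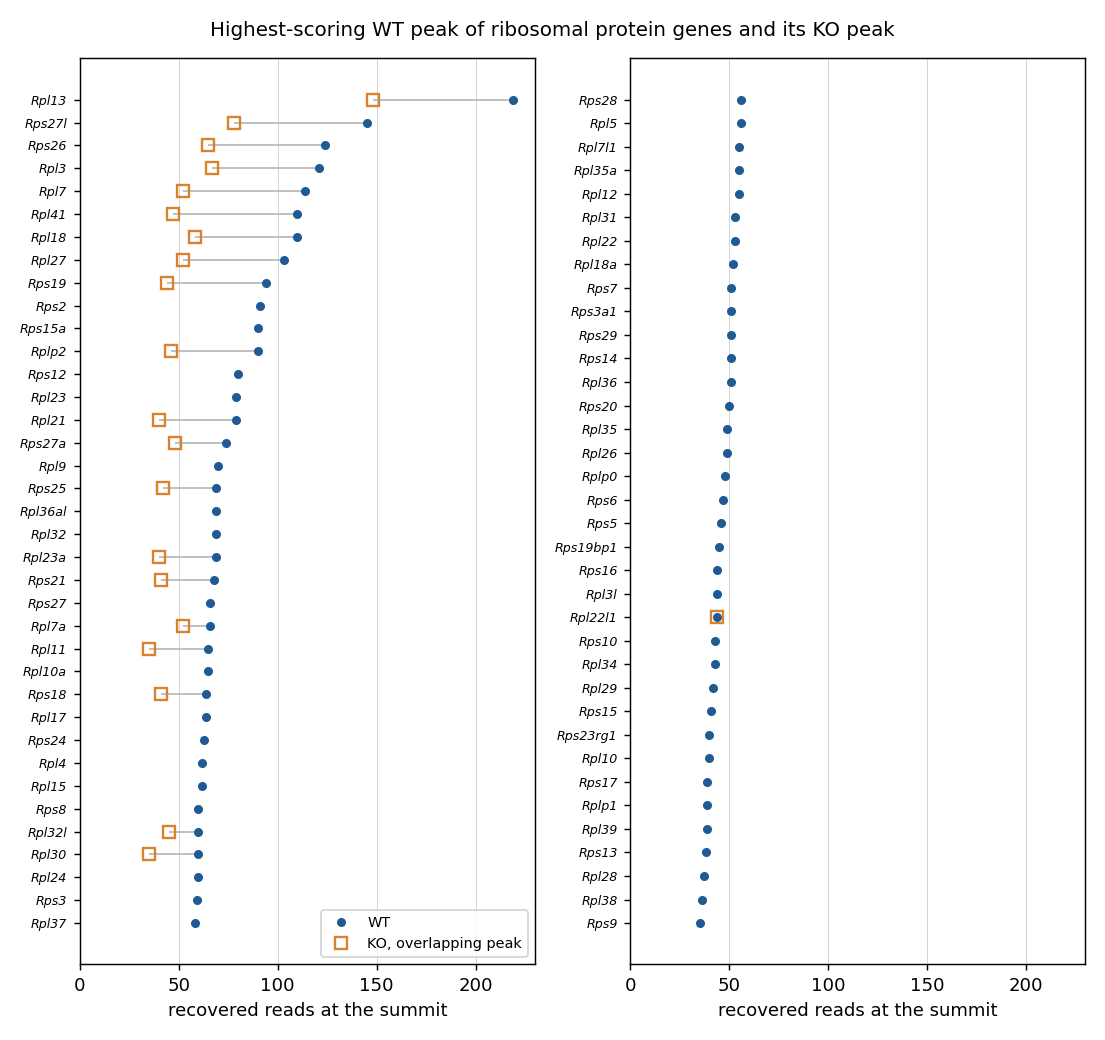
Recovered reads at the summit of the highest-scoring WT peak of 73 of the 75 ribosomal protein genes with a WT peak (2 that share a peak are not drawn; filled circles) and of the KO peak that overlaps it (open squares), in order of WT reads from the top left to the bottom right. Rpl13 stands at the top with 219 WT and 148 KO reads, and in the right panel, where all genes have under 60 WT reads, Rpl22l1 alone has a KO square.

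Among large subunit genes, Rpl13 had the strongest peak of all members, on chromosome 8 from 123100131 to 123101195. It held 219 reads in WT and 148 in KO, and its summit lay 1850 bp upstream of the start of Rpl13, close to the 2 kb limit. The log2 KO to WT ratio of reads above background was -0.60. A separate peak at the Rpl13 promoter itself, 18 bp upstream of the start, held 62 WT reads and was not called in KO. With a limit of 1 kb in place of 2 kb, this weaker site is the one counted for Rpl13.

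Rpl7 had 114 WT and 52 KO reads at a peak 318 bp outside the gene span on chromosome 1, a log2 ratio of -1.30. Rpl3, whose product reaches toward the peptidyl transferase centre of the ribosome, had 121 and 67 reads on chromosome 15, with the summit 100 bp beyond its span (-0.96). Rpl41, which encodes a very short basic peptide, had 110 and 47 reads 54 bp upstream of its start, and its log2 ratio of -1.43 was the lowest among the member peaks that overlapped a KO peak. Rpl27 had 103 and 52 reads with the summit 3 bp upstream of its start (-1.14). At these 4 genes the KO summit held fewer reads than the WT summit in each case.

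Rpl18 had a pair of peaks that overlapped KO peaks (kept peaks). The stronger, 3200 bp upstream of the start listed in the promoter table but 596 bp from the end of the gene span, held 110 WT and 58 KO reads (-1.05). The other held 82 and 46 reads, and its nearest gene end was that of Sphk2, which encodes a sphingosine kinase, at 686 bp. Rplp2, whose product belongs to the stalk that recruits elongation factors, had 90 and 46 reads 269 bp upstream of its start (-1.14). The end of Pidd1 lay 183 bp from that summit, nearer than Rplp2.

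Weaker large subunit peaks called in both genotypes were found at Rpl21, Rpl23a, Rpl7a, Rpl11 and Rpl30. Rpl21 had 79 WT and 40 KO reads and Rpl23a 69 and 40. Rpl7a had 66 and 52 reads, a log2 ratio of -0.41, at a peak whose nearest gene end was that of Med22. Rpl30 had 60 and 35 reads. Rpl11, whose product together with that of Rpl5 binds MDM2 and so links ribosome assembly to p53, had a pair of kept peaks. Its promoter peak, 142 bp inside the gene, held 62 WT and 37 KO reads, and the peak beyond its 3′ end held 65 and 35. Rpl5 had a WT-only peak of 56 reads, 130 bp downstream of its start.

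Rpl35a was the member with a KO peak that overlapped no WT peak. The KO peak, with 38 reads, lay 1098 bp upstream of the start, and the WT peak, with 55 reads, 201 bp upstream. The other 25 of the 26 KO peaks overlapped a WT peak, and over all KO peaks near gene ends the share was 99.6%.

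Among small subunit genes, Rps26 had the strongest peak, on chromosome 10 from 128626463 to 128628066. It held 124 WT reads at a summit 1262 bp upstream of the start. In KO, 2 separate peaks lay under it, with 65 reads 1242 bp upstream and 63 reads 177 bp upstream. The log2 ratio at the stronger was -1.05. Rps19, the gene most often altered in Diamond-Blackfan anaemia, had 94 WT and 44 KO reads (-1.30), 1637 bp beyond the gene span and 6535 bp downstream of its start. Its promoter peak, 320 bp upstream of the start, held 70 WT reads and was not called in KO.

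Kept peaks were also found at Rps27a, Rps25, Rps21 and Rps18. Rps27a, which encodes ubiquitin fused to a ribosomal protein, had 74 and 48 reads (-0.75). Rps25 had 69 and 42 reads (-0.87) at a peak nearer to Trappc4, Rps21 had 68 and 41, and Rps18 had 64 and 41 (-0.79) at a peak nearer to Vps52. These 4 KO summits were weak, between 41 and 48 reads.

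WT-only peaks were weaker than the strongest kept ones and reached 91 reads. Rps2 had 91 WT reads 214 bp upstream of its start, and Rps15a had 90 reads with the summit 1343 bp beyond its span. Rps12 had 80 reads 190 bp upstream of its start, and Rpl23, of the large subunit, 79 reads 84 bp upstream. Rpl9 and Rps19 each had a WT-only peak of 70 reads. These 6 were all of the WT-only member peaks with at least 70 reads, and 20 had at least 60. Near any gene end the kept shares were 27.6% from 60 to 69 reads, 59.6% from 70 to 89 and 95.7% from 90. At member peaks these shares were 39.1%, 50.0% and 83.3%. Other WT-only peaks among the highest-scoring were those of Rpl36al and Rpl32, both with 69 reads, of Rpl10a with 65, of Rps15a at its promoter with 66 and of Rps27 with 66.

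Weaker WT-only peaks were found at Rps6, Rplp0 and Rps20. Rps6, whose product is phosphorylated by the S6 kinases, had 47 WT reads 34 bp upstream of its start and no KO peak. Rplp0, a scaffold of the stalk and a common reference gene in expression assays, had WT-only peaks of 48 and 42 reads, 60 and 1006 bp downstream of its start. Rps20 had a WT-only peak of 50 reads. Rpsa, which encodes a small subunit protein also known as the laminin receptor precursor, had no WT peak within 2 kb.

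No WT peak was found within 2 kb for 14 genes, of which 7 belonged to the core of the large subunit (Rpl6, Rpl8, Rpl14, Rpl19, Rpl27a, Rpl36a and Rpl37a), 3 to the core of the small subunit (Rpsa, Rps4x and Rps23) and 4 lay outside the core (Rpl10l, Rpl39l, Rpl37rt and Rps27rt). These names other than Rpsa were added after the values were seen. Rpl19 was left out by the way gene ends are drawn: it had a WT-only summit of 50 reads 8 bp upstream of an annotated start, but 3791 bp from the nearer end of its span. It was the sole gene of the 14 with a WT summit within 5 kb. Peaks just inside the limit were those of Rpl9 (1787 bp, 61 reads), Rpl18 (1849 bp, 82 reads) and Rpl13 (1850 bp, 219 reads); those just outside lay at Rpl31 (2152 bp, 45 reads), Rpl3l (2243 bp, 46 reads) and Rpl24 (2374 bp, 45 reads).

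Paralogues differed from one another. Rps27l, a gene induced by p53, had 145 WT and 78 KO reads 154 bp upstream of a start (-0.99), the second highest WT value of all members, while Rps27 had 66 WT reads and no KO peak. Rpl22l1 had 44 reads in both genotypes, a log2 ratio of 0.00, and was the one kept site without fewer reads in KO; its partner Rpl22 had a WT-only peak of 53 reads. Rpl32l had 60 and 45 reads (-0.51), 1067 bp beyond its span. Rpl10l and Rpl39l, which are expressed mainly in the testis, had no peak. Rpl3l, expressed mainly in heart and skeletal muscle, had peaks of 44 and 46 WT reads that lay 3705 and 4958 bp downstream of its start, nearer to Msrb1, and none at its start.

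Of the 91 WT peaks, 24 (26.4%, 17.7 to 36.7) shared at least 1 bp with a KO peak and are called kept, against 32.5% of WT peaks near any gene end. The share followed the WT reads. It was 1 of 29 peaks under 50 reads (3.45%), 0 of 19 from 50 to 59 reads (upper limit 17.6%), 9 of 23 from 60 to 69 (39.1%), 4 of 8 from 70 to 89 (50.0%) and 10 of 12 from 90 reads (83.3%). Near any gene end the shares in these classes were 2.38%, 10.6%, 27.6%, 59.6% and 95.7%. Each of the 5 values near any gene end lies inside the interval of the ribosomal protein genes, which are wide at these numbers of peaks.

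**Figure D3:**
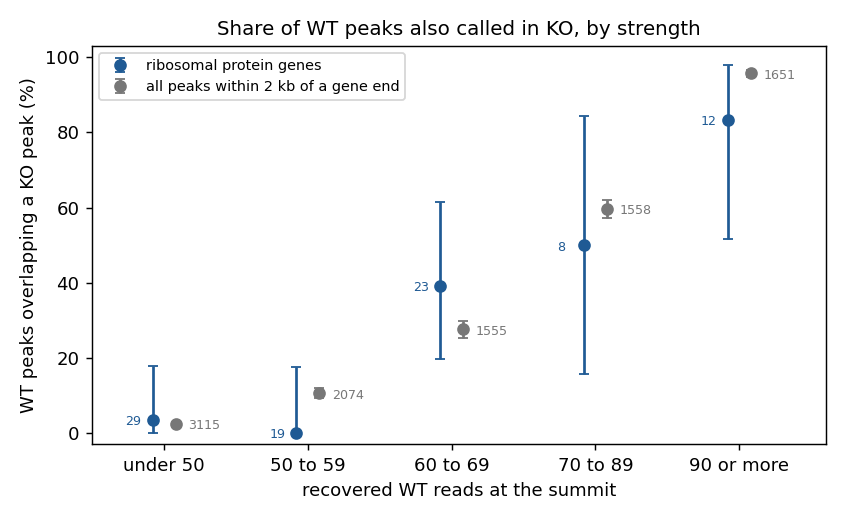
Share of WT peaks that overlap a KO peak (vertical axis, percent) by recovered WT reads at the summit (horizontal axis), for peaks of ribosomal protein genes (blue) and all peaks within 2 kb of a gene end (grey); numbers are peaks per class and lines are exact 95% intervals that cover counting error only. The share climbs from 3.45% under 50 reads to 83.3% from 90 reads at ribosomal protein genes.

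At the 24 kept peaks the median was 80.5 reads in WT and 45.5 in KO, and KO reads were lower at 23 of them, as they were at 3215 of the 3230 kept peaks near any gene end. The median log2 KO to WT ratio above background was -0.99 (quartiles -1.14 and -0.85), a ratio of 0.504. Over the 3230 kept peaks near any gene end the median was -0.93 (quartiles -1.11 and -0.75). These ratios cover only peaks called in KO, so the 67 WT-only member peaks have none. Near any gene end, 2.38% of peaks under 50 WT reads were kept, and their median ratio was -0.37. For kept peaks under 90 WT reads the medians were -0.92 at ribosomal protein genes and -0.88 near any gene end, and from 90 reads -1.10 and -0.98. The local background at the kept peaks had a median of 11.9 in both WT and KO at ribosomal protein genes, and of 12.5 in WT and 10.7 in KO near any gene end.

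Most YAP summits of ribosomal protein genes with an annotated start lay near it. Of 71 gene and peak pairs with an annotated start, 46 (64.8%, 52.5 to 75.8) lay within 300 bp of it, against 50.5% of 9652 pairs over all genes. The median span was 3183 bp for ribosomal protein genes and 17329 bp for all genes. The share of pairs was not computed for genes with a span under 10 kb, so an effect of gene length was not tested. Of the 69 genes with an annotated start, 46 (66.7%, 54.3 to 77.6) had a WT summit within 300 bp of it and within 2 kb of a gene end. Of all genes with an annotated start, 28.0% did. In KO the shares were 13.0% (6.14 to 23.3) and 8.10%. Summits at starts more than 2 kb from both gene ends were not counted in any of these shares. One such WT summit was that of Rpl19, 8 bp upstream of a start. Of the 46 summits, 29 were upstream of the start, and the median position was 32 bp upstream. Over all genes, 2751 of 4877 such summits were upstream, with a median position of -27 bp (negative is upstream).

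Median WT reads were slightly lower for peaks at the start than for those over 1 kb away. The 46 had a median of 55.5 reads and 8 (17.4%, 7.82 to 31.4) were kept, while the 18 peaks over 1 kb from the start had a median of 61.5 reads and 7 (38.9%, 17.3 to 64.3) were kept. The intervals overlap. Over all genes, 28.3% of peaks within 300 bp of a start and 37.1% of those over 1 kb away were kept. Another gene's end was nearer than that of any ribosomal protein gene for 18 of the 91 peaks, so binding there cannot be assigned to a ribosomal protein gene by distance.

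**Figure D4:**
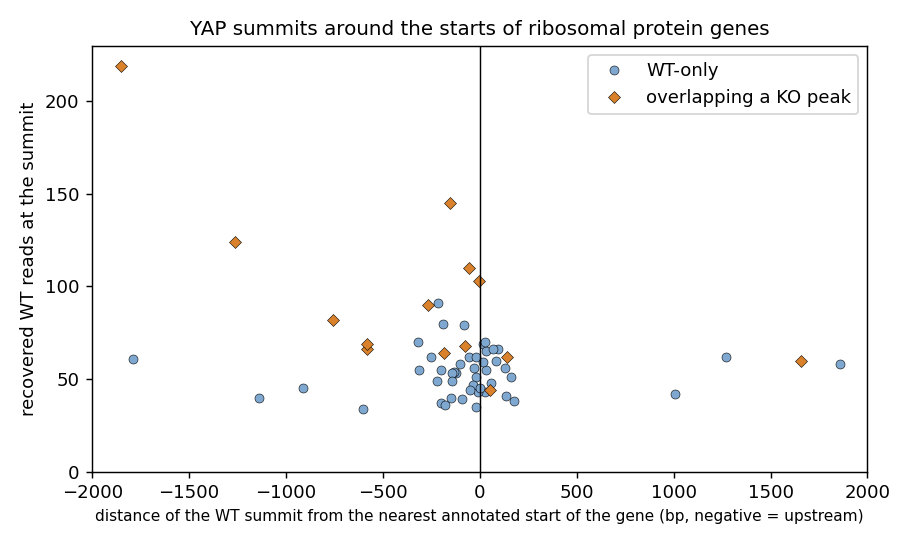
Recovered WT reads (vertical axis) against the distance of the WT summit from the nearest annotated start of the same gene (horizontal axis, bp, negative is upstream) for the 61 gene and peak pairs within 2 kb of a start; 10 pairs farther away are not drawn. Circles are WT-only peaks and diamonds overlap a KO peak; 46 summits lie within 300 bp of the start, mostly under 80 reads.

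Promoter motifs were counted in windows of 300 bases, from 250 before to 50 after each annotated start, with 81 windows of ribosomal protein genes and 21045 of all protein-coding genes. A WT summit lay inside 38 of the 81 windows, from 35 genes. Among the 38 are overlapping windows of Rpl19, which hold the E-box, although Rpl19 had no WT summit within 2 kb of a gene end. Of these 38, 3 (7.89%, 1.66 to 21.4) held the TEAD motif, those of Rpl26, Rpl36al and Rps16, and 2 (5.26%) the AP-1 motif, those of Rpl9 and Rpl22, against 6.0% of all windows with a WT summit and 7.04% of all windows. Among all windows with a WT summit inside, 15.6% held the TEAD motif, and among those with a KO summit 24.2%; of all windows 13.5% did. The E-box was found in 5 of 38 (13.2%, 4.41 to 28.1), against 12.4% of all windows with a WT summit and 7.91% of all windows. Of the 43 member windows without a WT summit, 4 (9.3%, 2.59 to 22.1) held the TEAD motif, 0 the AP-1 motif and 3 (6.98%, 1.46 to 19.1) the E-box. The genes were named after the matches were seen.

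The ETS motif was found in 17 of the 38 windows (44.7%, 28.6 to 61.7), in 10 of the 43 member windows without a WT summit (23.3%, 11.8 to 38.6), in 23.5% of all windows with a WT summit and in 11.7% of all windows. The SP1 motif was found in 25 of 38 (65.8%, 48.6 to 80.4), close to the 69.9% of all windows with a WT summit. It was found in 22 of 43 member windows without a summit (51.2%, 35.5 to 66.7) and in 46.7% of all windows. A pyrimidine tract, here a C followed by at least 4 pyrimidines and beginning within 10 bases of the start, was found in 19 of 38 windows with a summit (50.0%) and 25 of 43 without (58.1%), against 31.3% of all windows. YY1 matches were found in 3 of 38 (7.89%, 1.66 to 21.4) and 5 of 43 (11.6%, 3.89 to 25.1), against 5.44% of all windows with a WT summit and 3.07% of all windows. Windows of 1 gene can overlap where it has several starts, and the intervals count each window as separate. The motifs overlap in part with one another, as in Rps21 above. A match is a description of letters and not a measured site.

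**Figure D5:**
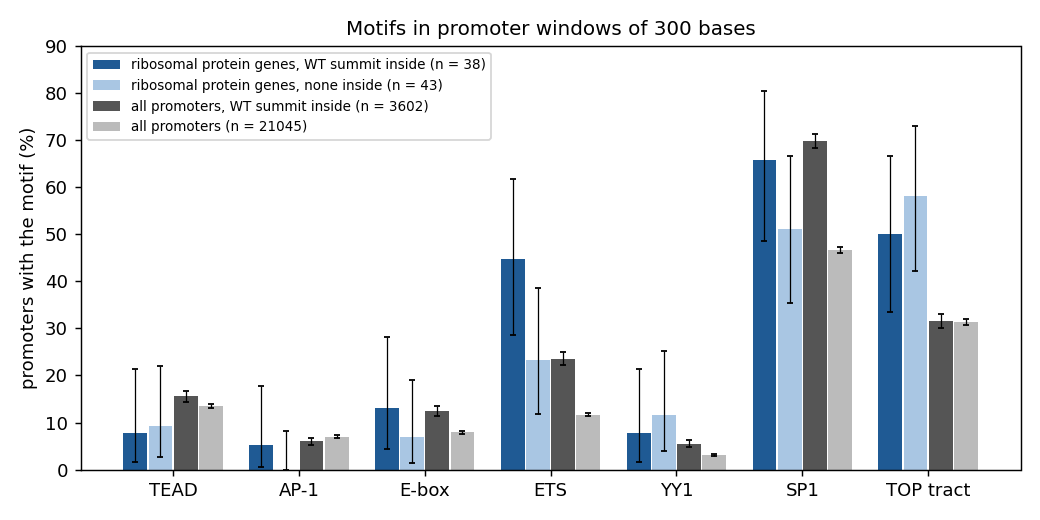
Share of promoter windows of 300 bases (vertical axis, percent) that hold each motif (horizontal axis), for ribosomal protein genes with and without a WT summit inside the window, all windows with a WT summit and all windows; lines are exact 95% intervals that cover counting error only. The TEAD motif lies at 7.89% and the ETS motif at 44.7% in ribosomal protein windows with a summit.

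Other genes of ribosome production were counted in the same way. A WT summit was near 13 of 16 TOP-class genes (81.2%, 54.4 to 96.0) and a KO summit near 7 (43.8%, 19.8 to 70.1). These genes encode elongation factors and other proteins whose transcripts share the TOP tract. The strongest peaks were at Eef1g (105 WT and 42 KO reads), Eif4b (104 and 54) and Tpt1 (102 and 54). Of 30 ribosome biogenesis genes, 24 (61.4 to 92.3%) had a WT and 7 a KO peak, led by Sbds (135 and 70 reads), Eif6 (130 and 66) and Nop58 (111 and 67). The products of Sbds and Eif6 act together in the last step of large subunit maturation. Of 12 regulators of translation or ribosome stress, 11 (91.7%, 61.5 to 99.8) had a WT and 2 (16.7%, 2.09 to 48.4) a KO peak. The highest-scoring were at Trp53 (88 and 59 reads), Mdm2 (82 and 46) and Eif4e (61, WT-only). Among all protein-coding genes the shares were 41.6% in WT and 16.0% in KO.

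A pair of comparison lists of other widely expressed genes, with longer median spans of 7690 bp and 11930 bp, gave WT shares between those of ribosomal protein genes and of all genes. Of 78 mitochondrial ribosomal protein genes, 57 (73.1%, 61.8 to 82.5) had a WT and 16 (20.5%) a KO peak, with the strongest at Mrps12 (220 and 151 reads), Mrps18b (158 and 103) and Mrpl17 (139 and 65). Of 40 proteasome subunit genes, 27 (67.5%, 50.9 to 81.4) had a WT and 8 a KO peak, led by Psmd3 (128 and 70 reads), Psma3 (112 and 53) and Psmc4 (94 and 47). The intervals of both lists overlap that of the ribosomal protein genes. Their kept shares, 24.2% and 28.1% of WT peaks, lie beside the 26.4% of the ribosomal protein genes.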

How the data were processed

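YAP ChIP-seq of Bmal1 WT and KO mouse epidermis was analysed from 1 deposited peak list per genotype; no input file was used. Per the submitters' processing notes, build mm10 and the tools Trimmomatic 0.36, SAMtools 1.5, MACS2 2.1.1 were used, without stated roles. Aligner, filters and pooling were not given in the sources used here. Per the labels, each sample had 25000000 to 50000000 reads. The authors' files give for each peak a score (10 times the −log10 q, truncated), a fold ratio of signal over background, the −log10 p and −log10 q, and the summit; the lowest −log10 q was 2.01 in WT and 2.03 in KO. From the deposited fold and −log10 p, whole reads at each summit were solved after a search for the scaling of each list (0.694 in WT, 0.842 in KO); 100% of peaks matched within 0.002, against 0.67% and 0.33% with the scaling 3% off. The solving was tested on simulated lists made with the same formulas. Log2 ratios pair a WT peak with the strongest overlapping KO peak, after subtraction of 9.63 reads.

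Gene spans and starts came from RefSeq tables of GRCm38.p6. The members and lists were chosen with earlier results of these data known. Named genes were those with a KO peak, the 20 with the highest-scoring WT peaks, Rplp0, Rpsa, Rps6 and Rpl11, and the top 3 of each other list; further members named, such as Rpl5, Rps20, Rpl22 and Rpl3l, were chosen after their values were seen. Some items are not reported here. Rps23rg1 was put outside the core, and gene shares by reads, read classes, the 300 bp start window and the class of short spans were set, after the values were seen. Python 3.11.15, SciPy 1.17.1 and pandas 2.3.3 were used.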

Additional observations from a re-analysis of the deposited data

How the results depend on the processing

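With 1 pooled list per genotype no replicate could be left out. No paired analysis was possible because 1 pool stands for each group. Summits within 1 or 5 kb, core genes, nearest gene ends, summits within 200 bp, other KO pairing and other background subtraction gave 66 to 76 genes with a WT peak, 18 to 28 with a KO peak, a kept share of 23.7 to 26.5% and a median log2 ratio of -0.99 to -0.84. Local background subtraction and the removal of members with long spans were chosen after seeing the data. A limit on gene starts, which 69 members have in the table, gave 15 genes with a KO peak. With a fold of at least 8 in both lists, 7 genes had a WT and 1 a KO peak, 7 WT peaks remained with a median of 110.0 reads, and 14.3% of them were kept. With a −log10 q of at least 10, 41 genes had a WT and 7 a KO peak, and 16.0% of 50 WT peaks were kept. With 50% reciprocal overlap 14.3% were kept, and the highest-scoring peak of 11 named genes, among them Rps26 and Rplp2, was no longer kept. When the WT list was shortened to 14879 peaks, 24 genes had 26 WT peaks and 57.7% were kept. These settings leave fewer peaks or a stricter overlap by construction. Any other cause was not tested. Most settings in this paragraph were applied to members only, so their counts and kept shares cannot be set against all genes or peaks. One exception is the shortened WT list, in which 16.3% of all protein-coding genes had a peak. With local background subtracted, the median log2 ratio was -0.96 at members and -0.93 near any gene end. For spans under 10 kb, 73 of 87 members had a WT peak, against 31.9% of all such genes. Of the WT peaks at these spans, 27.3% were kept for members and 33.0% for all such genes. Weak sites are limited by what was called, with at least 28 reads in WT and 29 in KO.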
